A study of Macaca mulatta with 12 samples.

Results

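The 9 genes described here encode angiogenic peptides and their receptors: the ligands VEGFA, VEGFB, VEGFC, PGF, ADM and ANGPTL4, and the receptors FLT1, KDR and NRP1. They were chosen by symbol from the 16745 gene symbols of the deposited expression table, and all 9 were present and passed the filter on low values that left 12084 genes for testing. The RNA came from cultures labelled as cardiomyocytes made from induced pluripotent stem cells of the rhesus macaque, a non-human primate. The 4 groups of 3 libraries were engineered heart tissue (EHT), a tissue cast in 3 dimensions, in hypoxia and in normoxia, and a flat monolayer in hypoxia and in normoxia. Hypoxia was an anaerobic pouch for 24 hours, followed per the labels by 24 hours after the medium was refreshed, and the labels do not say at which point RNA was taken. No hours of a medium change are given for the normoxia libraries. The parts of low oxygen and of the medium change in a difference therefore cannot be told apart. All 4 groups were kept in RPMI medium with B27 and insulin. Nothing in the labels says whether the libraries of a group came from separate differentiations or animals, so the p-values measure the spread between these libraries, which may be technical.

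VEGFA is the main secreted signal that makes endothelial cells divide, migrate and form vessels, and in human and mouse cells its transcription is raised by hypoxia-inducible factors (HIF). It binds the receptor tyrosine kinases FLT1 (VEGFR1) and KDR (VEGFR2), with NRP1 as a coreceptor. PGF and VEGFB bind FLT1 and NRP1 and not KDR, whereas VEGFC binds FLT4 and KDR and is best known for lymphatic growth. ADM is a vasodilator peptide that signals through CALCRL paired with RAMP2 or RAMP3. ANGPTL4 is a secreted inhibitor of lipoprotein lipase that responds both to hypoxia and to fatty acid sensors of the PPAR family. In the heart, cardiomyocytes secrete VEGFA and neighbouring endothelial cells carry most of its receptors.

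The libraries held 4154346 to 11298841 reads. The deposited log2 values sat at different levels in different libraries, with medians of 6.98 to 8.75, so each library was centred on its own median before testing, and every difference below is a difference of centred log2 values ± its standard error. Centring moved all differences together by 0.55 for hypoxia against normoxia in monolayer, by -0.15 for the same in EHT, by 0.04 and 0.74 for EHT against monolayer in hypoxia and normoxia, and by -0.70 for the interaction. Levels are given as normalised reads, which are reads recovered from the deposited values and divided by a median-of-ratios factor. They are not divided by transcript length, so levels of different genes are not compared. A gene was called where its adjusted p in limma was below 0.05. The summed level of 10 cardiomyocyte markers was 125 to 6025 normalised reads in EHT hypoxia, 78.9 to 1180 in EHT normoxia, 47866 to 50859 in monolayer hypoxia and 2518 to 19260 in monolayer normoxia. The sums were lower in every EHT library than in every monolayer library of the same oxygen condition. TNNI3, MYH6 and MYBPC3 had 0 reads in EHT hypoxia replicate 3, and MYBPC3 had 0 in EHT normoxia replicate 3. These 2 libraries also had 0 reads for 4 of 6 macrophage markers, CSF1R, PTPRC, AIF1 and CD163, each of which was detected in the other 10 libraries. The sum of 9 epithelial markers was 127 to 1358 normalised reads in EHT hypoxia and 52.8 to 112 in EHT normoxia. In monolayer it was 882 to 1124 in hypoxia and 9257 to 44574 in normoxia. Sums of 8 fibroblast markers ran from 191166 in a monolayer normoxia library to 520750 in an EHT hypoxia library. The part of such content in the differences below was not tested. In bulk RNA, fewer cells of a type and less RNA per cell cannot be told apart.

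The 2 archetypal hypoxia-responsive ligands, VEGFA and ADM, were higher in the hypoxia libraries of both cultures, together with VEGFB and ANGPTL4. PGF was called higher in EHT and FLT1 in monolayer, and VEGFC and NRP1 were called in neither. Of the 9 genes, 5 were called higher and 0 lower with hypoxia in EHT, where 19.5% of all tested genes were called higher and 16.0% lower. In monolayer 5 were called higher and 0 lower, where 27.8% of all tested genes were called higher and 18.6% lower. The hypoxia and normoxia groups of centred values did not overlap for 5 of the 9 in EHT and 6 in monolayer, against 43.5% and 62.0% of all tested genes. Without both EHT libraries numbered 3, 6 were called higher and 1 lower in EHT, and 6 higher in monolayer. Calls over all 12084 tested genes rose as well in that fit. They went from 2360 higher and 1932 lower to 2925 and 2298 in EHT. In monolayer they went from 3362 and 2253 to 3902 and 2837. Since so many genes differed between hypoxia and normoxia, the counts by themselves say little about these 9. The sizes and patterns of their differences across libraries follow.

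**Figure D1:**
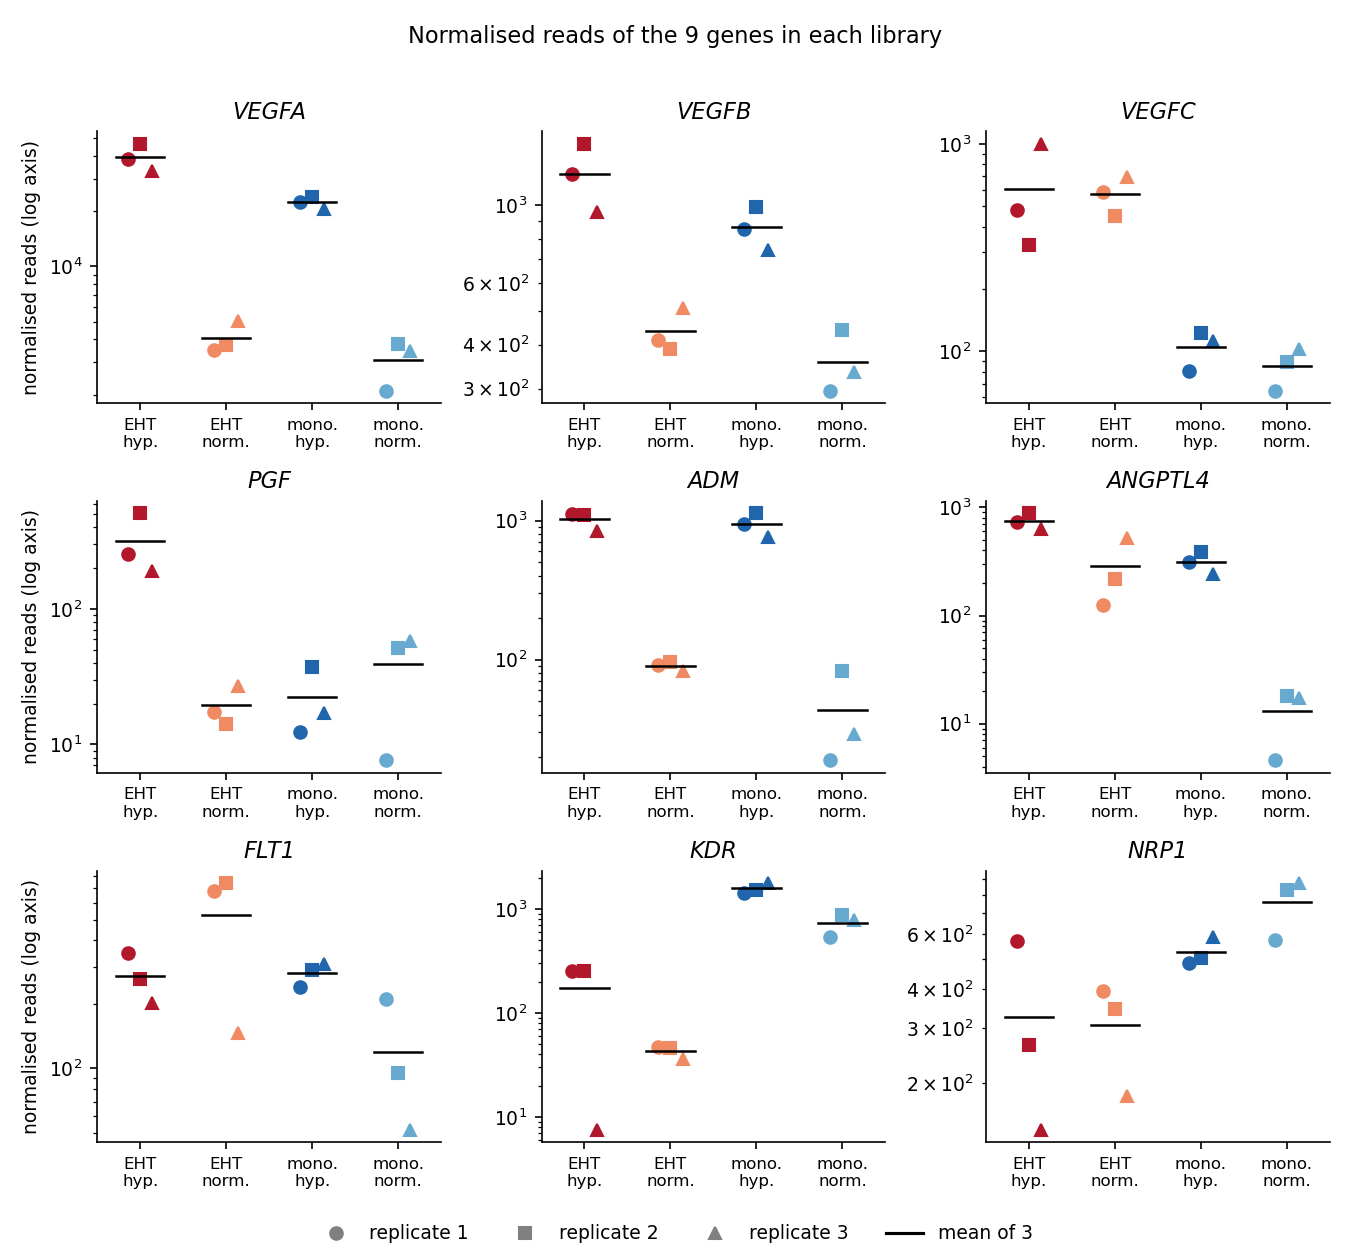
Normalised reads of each gene (vertical log axis) in the 3 libraries of each group, with replicates as circles, squares and triangles and the group mean as a bar. VEGFA and ADM separate hypoxia from normoxia in both cultures, PGF in EHT alone, and KDR is low in every EHT library, with 7.47 normalised reads in EHT hypoxia replicate 3.

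VEGFA had 38426, 46466 and 32800 normalised reads in EHT hypoxia, against 3504, 3706 and 5044 in EHT normoxia. It had 22469, 23742 and 20514 in monolayer hypoxia, against 2099, 3760 and 3451 in monolayer normoxia. Every hypoxia library lay above every normoxia library of either culture. The difference between hypoxia and normoxia was 3.32 ± 0.23 in EHT (adjusted p = 7.62e-07), a 9.60-fold ratio of group means, and 2.96 ± 0.23 in monolayer (adjusted p = 1.12e-06), a 7.17-fold ratio. VEGFA took 0.398 to 0.563% of all reads in EHT hypoxia libraries and 0.0488 to 0.0779% in EHT normoxia libraries, and 0.235 to 0.260% in monolayer hypoxia and 0.0365 to 0.0677% in monolayer normoxia. The interaction, EHT minus monolayer, was 0.36 ± 0.32 (95% interval -0.33 to 1.05, adjusted p = 0.449). Whether the cultures differ in the size of the hypoxia difference was thus not resolved.

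Between cultures, VEGFA was higher in EHT than in monolayer under hypoxia, by 0.84 ± 0.23 (adjusted p = 0.0109, groups separate). On uncentred values this difference was 0.81 with an adjusted p of 0.336. In normoxia the difference was 0.49 ± 0.23 (adjusted p = 0.102), and it turned to -0.25 on uncentred values. Gene-level reads do not separate the splice forms of VEGFA, which differ in how strongly they bind the matrix. The 4 genes whose centred values followed VEGFA most closely over the 12 libraries were NDRG1 (Pearson r = 0.989), a stress gene strongly induced by hypoxia, and CIZ1 (0.989), SRSF4 (0.988) and DLG4 (0.988). These r describe points that fall into hypoxia and normoxia groups and share libraries. The r given below for ADM, ANGPTL4 and KDR likewise describe points that fall into groups.

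VEGFB, a ligand of FLT1 known for its expression in heart muscle, followed the same pattern at smaller amplitude. It had 1229, 1495 and 954 normalised reads in EHT hypoxia, against 412, 388 and 509 in EHT normoxia. The monolayer values were 857, 985 and 747 in hypoxia, against 296, 441 and 334 in normoxia. Hypoxia and normoxia did not overlap in either culture. The differences were 1.49 ± 0.19 in EHT (adjusted p = 7.25e-05) and 1.35 ± 0.19 in monolayer (adjusted p = 8.63e-05), the second of which was 0.80 with an adjusted p of 0.219 on uncentred values. EHT exceeded monolayer under hypoxia by 0.52 ± 0.19 (adjusted p = 0.0412), although the normalised reads of the groups overlapped. That call was lost without EHT hypoxia replicate 1 or 2, EHT normoxia replicate 1, or monolayer hypoxia replicate 1 or 3, with adjusted p values of 0.0810, 0.149, 0.0543, 0.102 and 0.144. It was also lost under 5 other settings, among them uncentred values (0.49, adjusted p = 0.610). In normoxia the difference was 0.37 ± 0.19 (adjusted p = 0.123).

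VEGFC separated the cultures rather than the oxygen conditions. It had 482, 325 and 1004 normalised reads in EHT hypoxia and 586, 452 and 691 in EHT normoxia. In the monolayer it had 80.6, 123 and 113 in hypoxia and 64.6, 88.8 and 103 in normoxia. Every EHT library lay above every monolayer library. EHT minus monolayer was 2.25 ± 0.34 in hypoxia (adjusted p = 3.09e-04) and 2.66 ± 0.34 in normoxia (adjusted p = 6.29e-05), ratios of group means of 5.72 and 6.75. Hypoxia minus normoxia was -0.01 ± 0.34 in EHT (95% interval -0.73 to 0.72) and 0.40 ± 0.34 in monolayer (-0.33 to 1.12), with adjusted p values of 0.988 and 0.358. FLT4, the main receptor of VEGFC, lay under the filter on low values, with 0 to 4 reads in EHT libraries and 1 to 23 in monolayer libraries.

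PGF, placental growth factor, was high in EHT hypoxia alone. It had 253, 509 and 190 normalised reads in EHT hypoxia, against 17.3, 14.3 and 26.8 in EHT normoxia. Monolayer libraries had 12.4, 37.5 and 17.1 in hypoxia, against 7.63, 51.8 and 57.9 in normoxia. The lowest EHT hypoxia library lay above the highest of the other 9. The hypoxia difference was 3.16 ± 0.46 in EHT (adjusted p = 2.22e-04, a 16.3-fold ratio of means) and -0.26 ± 0.46 in monolayer (95% interval -1.25 to 0.73, adjusted p = 0.680). The interaction was 3.42 ± 0.65 (adjusted p = 0.00266), one of 2 called among the 9 genes, 1 higher and 1 lower, where 10.3% of all tested genes were called higher and 14.1% lower. EHT minus monolayer was 3.14 ± 0.46 in hypoxia (adjusted p = 2.67e-04) and -0.27 ± 0.46 in normoxia (adjusted p = 0.663). The PGF values of monolayer normoxia came from 15, 101 and 81 reads.

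**Figure D2:**
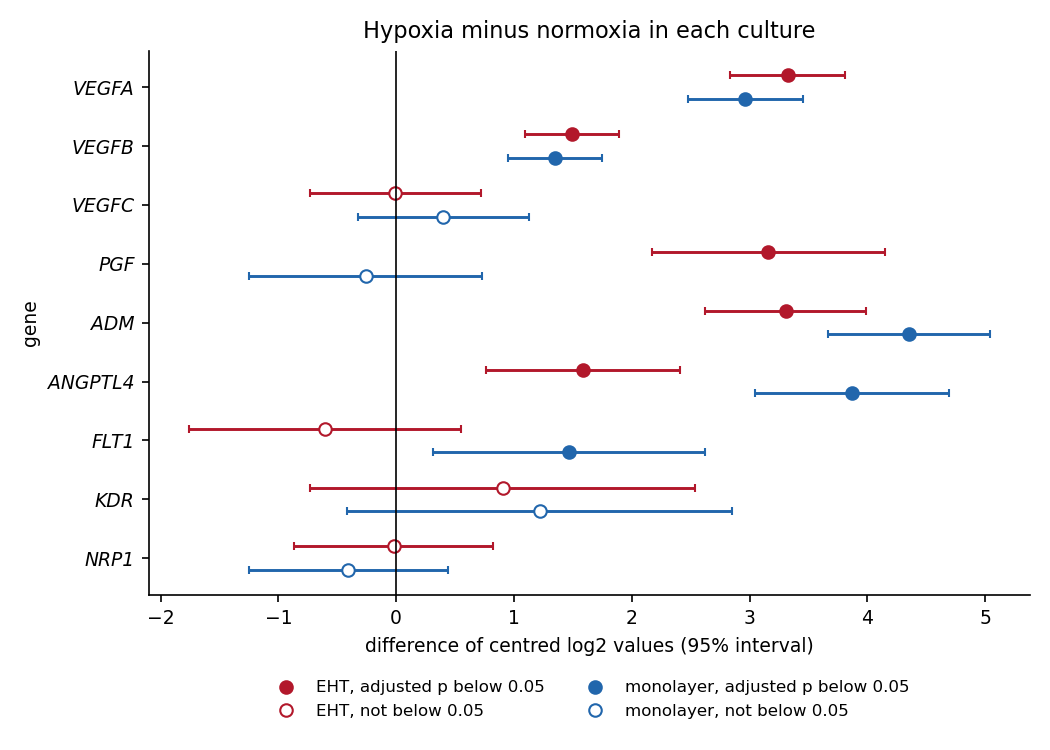
Hypoxia minus normoxia for each gene (horizontal axis, difference of centred log2 values, with 95% intervals) in EHT (red) and monolayer (blue), filled where the adjusted p was below 0.05. The intervals of EHT and monolayer lie apart for PGF and ANGPTL4, while those of VEGFA and VEGFB overlap.

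ADM reached similar levels in both cultures under hypoxia. It had 1126, 1106 and 845 normalised reads in EHT hypoxia, against 91.7, 96.5 and 83.0 in EHT normoxia. In monolayer it had 941, 1131 and 760 in hypoxia, against 18.8, 82.6 and 29.3 in normoxia. Hypoxia was 3.31 ± 0.32 higher in EHT (adjusted p = 1.20e-05, an 11.3-fold ratio of means) and 4.35 ± 0.32 higher in monolayer (adjusted p = 7.50e-07, a 21.7-fold ratio). Without monolayer normoxia replicate 2, the library with 82.6 normalised reads, the monolayer ratio was 39.2. EHT minus monolayer was 0.16 ± 0.32 under hypoxia (95% interval -0.52 to 0.85, adjusted p = 0.717). Under normoxia EHT was higher by 1.21 ± 0.32 (adjusted p = 0.00878), a call lost on uncentred values (0.47, adjusted p = 0.478) and with scaling to total reads (0.90, adjusted p = 0.0536). The interaction of -1.05 ± 0.45 was not called (adjusted p = 0.108). It was -1.53 with an adjusted p of 0.00215 without monolayer normoxia replicate 2. Over the 12 libraries the genes most like ADM were TIMM44, a subunit of the mitochondrial import motor (r = 0.981), RORA, a nuclear receptor (0.979), ALKBH5 (0.979) and DLG4 (0.979).

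The other tested genes of the adrenomedullin family and its receptors did not move as one. Of these 5 genes, which include the ligand ADM2, 1 was called higher with hypoxia in EHT and 2 in monolayer, none lower in either. Among all tested genes, 19.5% were called higher and 16.0% lower in EHT, and 27.8% and 18.6% in monolayer. ACKR3, a scavenging receptor for ADM and CXCL12, was higher with hypoxia by 2.42 ± 0.32 in EHT (adjusted p = 1.10e-04) and by 1.17 ± 0.32 in monolayer (adjusted p = 0.00936). The monolayer call was lost on uncentred values (0.62, adjusted p = 0.360), under quantile normalization (0.80, adjusted p = 0.0580) and with scaling to total reads (0.44, adjusted p = 0.288). CALCRL, the signalling receptor, had 11.0, 7.46 and 0 normalised reads in EHT hypoxia, against 6.92, 10.9 and 8.39 in EHT normoxia. In monolayer it had 55.8, 72.4 and 52.3 in hypoxia, against 12.7, 16.9 and 19.3 in normoxia. It was higher with hypoxia in monolayer by 1.53 ± 0.47 (adjusted p = 0.0165), a call lost without monolayer hypoxia replicate 2 (1.41, adjusted p = 0.0630), on uncentred values (0.98, adjusted p = 0.118) and with median-of-ratios scaling (1.82, adjusted p = 0.0628). Under hypoxia CALCRL was lower in EHT than in monolayer by -2.25 ± 0.47 (adjusted p = 0.00252). RAMP2, which carries CALCRL to the surface, was lower in EHT by -1.57 ± 0.45 in hypoxia (adjusted p = 0.0154) and by -1.46 ± 0.45 in normoxia (adjusted p = 0.0203). The hypoxia call of RAMP2 was lost without monolayer hypoxia replicate 1 (adjusted p = 0.0615), and the normoxia call without EHT normoxia replicate 2 or monolayer normoxia replicate 2 or 3 (0.0804, 0.0501 and 0.0802).

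ANGPTL4 differed between the cultures mainly in normoxia. It had 737, 883 and 635 normalised reads in EHT hypoxia, against 126, 219 and 523 in EHT normoxia. Monolayer libraries had 310, 388 and 244 in hypoxia, against 4.58, 18.0 and 17.2 in normoxia, the last from 9, 35 and 24 reads. All hypoxia libraries lay above all normoxia libraries within a culture, and EHT normoxia spread more widely than any other group of this gene. The hypoxia difference was 1.59 ± 0.38 in EHT (adjusted p = 0.00618, a 2.60-fold ratio of means) and 3.87 ± 0.38 in monolayer (adjusted p = 7.19e-06, a 23.7-fold ratio). The interaction was -2.28 ± 0.54 (adjusted p = 0.00885), and -1.58 with an adjusted p of 0.133 on uncentred values. EHT minus monolayer was 3.55 ± 0.38 in normoxia (adjusted p = 1.88e-05, a 21.9-fold ratio). Without EHT normoxia replicate 3, the library with 523 normalised reads, the hypoxia difference in EHT was 2.10 (adjusted p = 2.98e-04, a 4.35-fold ratio). In the same fit, EHT minus monolayer in normoxia was 3.03 (adjusted p = 1.88e-05, a 13.1-fold ratio) and the interaction was -1.77 (adjusted p = 0.00725). With all 12 libraries, EHT minus monolayer in hypoxia was 1.26 ± 0.38 (adjusted p = 0.0197). That call was lost without EHT hypoxia replicate 2 or monolayer hypoxia replicate 1 or 3 (adjusted p = 0.0593, 0.0532 and 0.0782). It was also lost on uncentred values (0.0775) and with median-of-ratios scaling (0.0645). Over the 12 libraries BRI3 (r = 0.987), OSGIN1 (0.983), MMP14, a membrane-bound matrix protease (0.980), and PLEKHF1 (0.979) were most like it.

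ANGPTL4 is itself a target of PPAR receptors, and 8 other PPAR targets were tested. In normoxia 4 of them were called higher in EHT than in monolayer and 2 lower. Among all tested genes, 22.8% were called higher and 18.5% lower there. CPT1A, the enzyme that commits fatty acids to mitochondrial import, had 413, 362 and 1191 normalised reads in EHT normoxia, against 35.1, 71.4 and 42.2 in monolayer normoxia. Its difference was 3.35 ± 0.38 (adjusted p = 2.53e-05). SLC25A20, the carnitine carrier of the same route, differed by 1.25 ± 0.25 (adjusted p = 0.00169), or 0.51 with an adjusted p of 0.444 on uncentred values. With hypoxia in EHT, CPT1A fell by 1.68 and SLC25A20 by 1.79 (adjusted p = 0.00397 and 1.68e-04), opposite in sign to ANGPTL4. In all, 2 of the 8 targets were called higher and 3 lower in that comparison. The shares of all tested genes were 19.5% and 16.0%. The targets were thus divided in direction in both comparisons, and the part of PPAR receptors in the ANGPTL4 values was not tested.

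FLT1, the receptor that VEGFA, VEGFB and PGF share, varied most within its own groups in normoxia. It had 347, 262 and 203 normalised reads in EHT hypoxia, against 680, 743 and 146 in EHT normoxia. In monolayer it had 241, 289 and 311 in hypoxia, against 212, 95.5 and 51.5 in normoxia. The monolayer groups did not overlap, whereas EHT normoxia replicate 3 lay below every EHT hypoxia library and the other two above. In monolayer hypoxia was higher by 1.47 ± 0.53 (adjusted p = 0.0383). That call was lost without monolayer hypoxia replicate 1, 2 or 3 or monolayer normoxia replicate 2 or 3, with adjusted p values of 0.0645, 0.0931, 0.101, 0.0863 and 0.159, and under 5 other settings (adjusted p = 0.0553 to 0.229). In EHT the difference was -0.60 ± 0.53 (adjusted p = 0.415). It was called lower without EHT normoxia replicate 3 (-1.32, adjusted p = 0.0278), without both EHT libraries numbered 3 (-1.15, adjusted p = 0.0336) and with library weights, which give deviating libraries less weight (-1.03, adjusted p = 0.0425). The interaction was -2.07 ± 0.75 (adjusted p = 0.0629). It was called without EHT normoxia replicate 3 (-2.79, adjusted p = 0.00386), without monolayer normoxia replicate 1 (-2.55, adjusted p = 0.0253) or without both EHT libraries numbered 3 (-2.62, adjusted p = 0.00171). With all 12 libraries it was called with library weights (-2.43, adjusted p = 0.00258), with no filter on low values (-2.18, adjusted p = 0.0465) and with the replicate number as a block (-2.07, adjusted p = 0.0277).

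In normoxia FLT1 was higher in EHT than in monolayer by 2.04 ± 0.53 (adjusted p = 0.00882), with overlapping groups, and by 2.75 without EHT normoxia replicate 3 (adjusted p = 3.32e-04). In hypoxia the difference was -0.03 ± 0.53 (95% interval -1.19 to 1.12). Reads per gene do not separate the membrane receptor from the soluble FLT1 form, a decoy that traps VEGFA. FLT1 is also carried by macrophages, whose 6 markers summed to 105 to 1164 normalised reads in EHT hypoxia, 63.8 to 1544 in EHT normoxia, 277 to 298 in monolayer hypoxia and 240 to 2091 in monolayer normoxia. The lowest macrophage sum and the lowest FLT1 level in EHT were both in EHT normoxia replicate 3. In monolayer normoxia, replicate 2 had the highest macrophage sum and 95.5 normalised reads of FLT1. The part of macrophages in the FLT1 values was not tested.

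KDR, the main signalling receptor for VEGFA in endothelium and also a marker of early cardiovascular progenitors, was far lower in EHT than in monolayer. It had 256, 255 and 7.47 normalised reads in EHT hypoxia, against 46.7, 46.2 and 36.1 in EHT normoxia. Monolayer libraries had 1445, 1532 and 1791 in hypoxia, against 536, 881 and 778 in normoxia. The lowest monolayer library lay above the highest EHT library. EHT minus monolayer was -3.84 ± 0.76 in hypoxia (adjusted p = 0.00187) and -3.52 ± 0.76 in normoxia (adjusted p = 0.00273). EHT had 0.109 of the monolayer mean in hypoxia and 0.0587 in normoxia. Without EHT hypoxia replicate 3, which held 4 reads of KDR against 187 and 205 in the other two libraries of that group, the hypoxia difference was -2.53 (adjusted p = 3.92e-06).

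With hypoxia KDR was called in neither culture by the equally weighted fit to all 12 libraries. The difference was 0.90 ± 0.76 in EHT (95% interval -0.73 to 2.54, adjusted p = 0.386) and 1.22 ± 0.76 in monolayer (-0.42 to 2.85, adjusted p = 0.209). The monolayer groups did not overlap, and the standard error of both came from the spread of all groups, EHT hypoxia included. Without EHT hypoxia replicate 3, KDR was higher with hypoxia by 2.21 in EHT (adjusted p = 4.29e-06) and by 1.22 in monolayer (adjusted p = 1.02e-04). Fitted to the monolayer libraries alone, the monolayer difference had an adjusted p of 3.54e-04. With all 12 libraries, library weights called KDR higher with hypoxia in EHT (1.84, adjusted p = 7.19e-04) and in monolayer (1.12, adjusted p = 0.0116), and voom on recovered reads called it in monolayer (1.15, adjusted p = 0.0296). The interaction of -0.31 ± 1.07 (adjusted p = 0.868) turned to 0.99 (adjusted p = 0.0130) without that library. Removing both EHT libraries numbered 3 gave 2.13 for hypoxia in EHT (adjusted p = 5.61e-06) and 0.91 for the interaction (adjusted p = 0.0195).

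**Figure D3:**
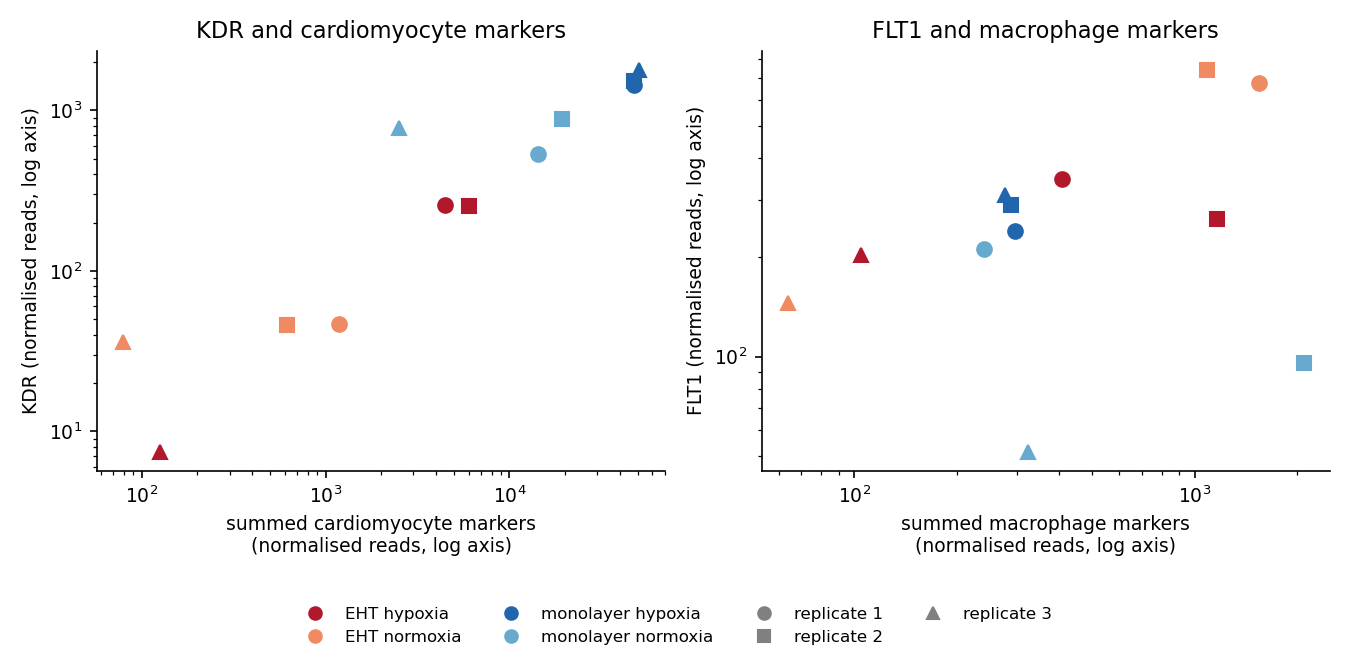
KDR against the summed level of 10 cardiomyocyte markers (left) and FLT1 against that of 6 macrophage markers (right), in normalised reads on log axes, with 1 point per library, colour for group and shape for replicate. EHT hypoxia replicate 3 has the lowest KDR, 7.47, and a cardiomyocyte sum of 125, and monolayer hypoxia libraries are highest in both. The lowest cardiomyocyte sum, 78.9, is that of EHT normoxia replicate 3, where KDR is 36.1. In EHT normoxia replicate 1 the sum is 1180 and KDR 46.7.

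The order of KDR over the groups was monolayer hypoxia, monolayer normoxia, EHT hypoxia and EHT normoxia, and the last pair overlapped. Of 10 cardiomyocyte markers, 9 were called lower in EHT than in monolayer under hypoxia and 8 under normoxia. Among all tested genes, 19.7% and 18.5% were called lower. With hypoxia 1 was called higher in EHT and 4 in monolayer, where 19.5% and 27.8% of all tested genes were. The sums had the same order of group medians as KDR, with 4466 normalised reads in EHT hypoxia and 614 in EHT normoxia, and 47866 in monolayer hypoxia and 14334 in monolayer normoxia. Among single libraries, monolayer normoxia replicate 3 had a cardiomyocyte sum of 2518, below 2 of the EHT hypoxia libraries, and 778 normalised reads of KDR. Endothelial markers were divided. Among all tested genes, 18.4% were called higher and 19.7% lower in EHT than in monolayer under hypoxia, and 22.8% and 18.5% under normoxia. Of the 9 endothelial markers that passed the filter, 4 were called higher and 0 lower under hypoxia, and 3 higher and 2 lower under normoxia. The lower pair was TEK and EGFL7. TEK had 7.47 to 241 normalised reads in EHT hypoxia and 10.1 to 72.6 in EHT normoxia, against 163 to 182 in monolayer hypoxia and 539 to 1246 in monolayer normoxia, and its lowest library held 4 reads. ERG was not called in either condition, but every EHT library lay below every monolayer library. It had 0 to 33.6 normalised reads in EHT hypoxia and 3.36 to 35.3 in EHT normoxia, against 40.2 to 43.4 in monolayer hypoxia and 39.3 to 47.3 in monolayer normoxia. In normoxia the EHT libraries also lay below the monolayer libraries for EGFL7 and for ESAM, which was not called. In hypoxia every EHT library lay above every monolayer library for PECAM1, CD34, VWF and ENG. PECAM1 had 49.3 to 98.9 normalised reads in EHT hypoxia, against 6.26 to 15.1 in monolayer hypoxia. For CD34 these were 74.7 to 152 against 2.48 to 14.3, and for VWF 23.3 to 224 against 2.01 to 5.36. In normoxia PECAM1 had 116 to 362 in EHT, against 17.2 to 93.4 in monolayer. CDH5, the defining endothelial cadherin, had 0 to 1 reads in monolayer hypoxia and 10 to 104 in monolayer normoxia. In EHT it had 0 to 3 reads in hypoxia and 0 to 5 in normoxia. CLDN5 had 0 reads in all EHT libraries, 0 to 2 in monolayer hypoxia and 1 to 4 in monolayer normoxia. The 15 endothelial markers summed to 648 to 1119 normalised reads in EHT hypoxia, 2027 to 2636 in EHT normoxia, 392 to 455 in monolayer hypoxia and 866 to 1948 in monolayer normoxia, and ENG alone gave 1650 to 2159 in EHT normoxia. The parts of cardiomyocyte and endothelial content in the KDR difference were not tested. Over the 12 libraries the genes most like KDR were KCNH2, a cardiac potassium channel gene (r = 0.991), TRIM63, a muscle ubiquitin ligase (0.987), DCX (0.984) and AFF3 (0.984). These r describe points that fall into EHT and monolayer groups, and they do not show which cells carry KDR.

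NRP1, the coreceptor for VEGFA and semaphorins, was lower in EHT in normoxia. It had 570, 265 and 142 normalised reads in EHT hypoxia, against 394, 347 and 182 in EHT normoxia. The monolayer held 485, 504 and 585 in hypoxia, against 573, 830 and 874 in normoxia. The 2 lowest values of the gene were those of EHT replicate 3 in hypoxia and normoxia. EHT minus monolayer was -1.22 ± 0.39 in normoxia (adjusted p = 0.0245, groups separate). The call was lost without EHT normoxia replicate 3 (-0.90, adjusted p = 0.101) or monolayer normoxia replicate 2 or 3 (adjusted p = 0.0713 and 0.0807). In hypoxia it was -0.83 ± 0.39 (adjusted p = 0.111), and -1.32 with an adjusted p of 0.00806 without EHT hypoxia replicate 1. Hypoxia minus normoxia was -0.02 ± 0.39 in EHT (95% interval -0.87 to 0.82) and -0.41 ± 0.39 in monolayer (-1.25 to 0.44), with adjusted p values of 0.972 and 0.426. Scaled to total reads, the monolayer difference was -1.15 with an adjusted p of 0.0239.

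NRP2, the second neuropilin and a coreceptor for VEGFC, moved in opposite directions in the cultures. It had 369, 412 and 360 normalised reads in EHT hypoxia, against 1190, 1102 and 859 in EHT normoxia. In monolayer it had 1867, 1988 and 1799 in hypoxia, against 898, 1091 and 1172 in normoxia. The groups did not overlap within either culture. NRP2 fell with hypoxia in EHT by 1.36 (SE 0.15, adjusted p = 3.35e-05) and rose in monolayer by 0.93 ± 0.15 (adjusted p = 3.11e-04), with an interaction of -2.29 ± 0.21 (adjusted p = 4.79e-05). On uncentred values these were -1.21, 0.38 and -1.58, with adjusted p values of 0.0903, 0.602 and 0.119, and scaled to total reads the monolayer rise was 0.19 (adjusted p = 0.228).

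**Figure D4:**
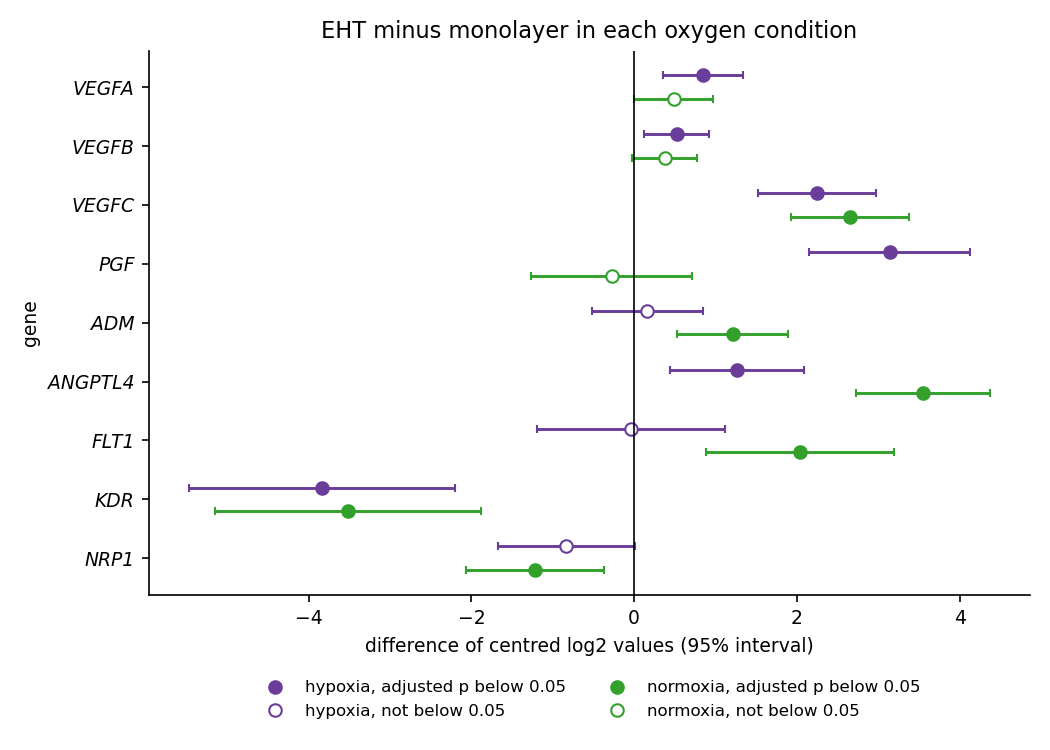
EHT minus monolayer for each gene (horizontal axis, difference of centred log2 values, with 95% intervals) in hypoxia (purple) and normoxia (green), filled where the adjusted p was below 0.05. VEGFC lies above 0 and KDR below 0 in both oxygen conditions, PGF above 0 in hypoxia, and ADM and FLT1 in normoxia.

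Across the 2 cultures, 5 of the 9 genes were called higher in EHT under hypoxia (VEGFA, VEGFB, VEGFC, PGF and ANGPTL4) and KDR lower, where 18.4% of all tested genes were called higher and 19.7% lower. Under normoxia VEGFC, ADM, ANGPTL4 and FLT1 were called higher in EHT, and KDR and NRP1 lower, where 22.8% were called higher and 18.5% lower. EHT and monolayer did not overlap for 6 of the 9 in each oxygen condition, against 50.8% of all tested genes in hypoxia and 55.5% in normoxia. The counts of calls were 5 and 1 in hypoxia, and 4 and 2 in normoxia, also without both EHT libraries numbered 3. In that fit 2444 of all 12084 tested genes were called higher and 2489 lower in hypoxia, and 3060 and 2565 in normoxia. The comparisons share libraries, so their counts are not independent. All called ligands thus lay on the higher side in EHT, and of the receptors KDR and NRP1 lay on the lower side and FLT1 on the higher. Several of these calls depended on centring or on single libraries. On uncentred values those of VEGFA, VEGFB and ANGPTL4 in hypoxia and of ADM in normoxia were lost. The VEGFB call in hypoxia was lost without any 1 of 5 libraries, and the NRP1 call in normoxia without any 1 of 3.

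The HIF targets outside the angiogenic genes rose in both cultures. Of 35 tested hypoxia-inducible genes, 33 were called higher with hypoxia in EHT and 32 in monolayer, with none lower, and their median differences were 3.06 and 2.48 against 0.03 and 0.07 over all tested genes. Of 10 tested regulators of the HIF pathway, 4 were called higher and 1 lower with hypoxia in EHT, and 3 higher and 2 lower in monolayer. With hypoxia 19.5% of all tested genes were called higher and 16.0% lower in EHT, and 27.8% and 18.6% in monolayer. HIF1A, whose protein rather than its RNA is controlled by oxygen, fell with hypoxia in EHT by 1.26 (adjusted p = 5.07e-04, or 0.133 on uncentred values), and EPAS1, which encodes HIF-2 alpha, fell in monolayer by 1.30 (adjusted p = 0.00923). The HIF target CA9, carbonic anhydrase 9, was higher with hypoxia by 6.68 ± 0.47 in EHT and by 1.73 ± 0.47 in monolayer (adjusted p = 0.00894), the second lost on uncentred values (1.18, adjusted p = 0.0560) and with scaling to total reads (1.05, adjusted p = 0.0893). NDRG1 was higher by 5.75 ± 0.32 and 4.37 ± 0.32, and EGLN3, an oxygen-sensing prolyl hydroxylase, by 5.06 ± 0.45 and 2.24 ± 0.45. In normoxia SLC2A1, a glucose transporter, was lower in EHT than in monolayer by -2.15 ± 0.18 (adjusted p = 3.35e-06), and 4 of the 35 genes were called higher there and 17 lower, where 22.8% of all tested genes were called higher and 18.5% lower. The stress gene DDIT3 was higher with hypoxia by 2.28 ± 0.19 in EHT and by 4.04 ± 0.19 in monolayer, among 9 and 11 of 13 unfolded protein and integrated stress response genes called higher.

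Other angiogenic signals were divided in direction. Of 24 further ligands and receptors, 6 were called higher and 7 lower with hypoxia in EHT, and 6 higher and 6 lower in monolayer. Among all tested genes, 19.5% were called higher and 16.0% lower in EHT, and 27.8% and 18.6% in monolayer. STC1, a secreted glycoprotein, was higher with hypoxia by 4.03 ± 0.32 in EHT and by 2.85 ± 0.32 in monolayer (adjusted p = 2.98e-06 and 2.07e-05). CXCL8, an angiogenic chemokine, was higher in EHT than in monolayer by 3.59 ± 0.46 in hypoxia and 3.28 ± 0.46 in normoxia. EDN1, the precursor of the vasoconstrictor endothelin-1, was higher in EHT than in monolayer under hypoxia by 3.33 ± 0.36, and fell with hypoxia in monolayer by 2.74. ANGPT1, the ligand that stabilises vessels, fell with hypoxia by 1.58 in EHT and by 0.90 in monolayer (adjusted p = 1.67e-04 and 0.00503). Its receptor TEK was lower in EHT than in monolayer under normoxia by -4.15 ± 0.79 (adjusted p = 0.00130).

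Of 12 tested angiogenesis inhibitors, 1 was called higher and 2 lower with hypoxia in EHT, and 7 higher and 2 lower in monolayer. Among all tested genes, 19.5% were called higher and 16.0% lower in EHT, and 27.8% and 18.6% in monolayer. CXCL14 was higher with hypoxia in EHT by 2.08 ± 0.29 (adjusted p = 1.61e-04) and fell in monolayer by 2.46 (adjusted p = 2.54e-05). TIMP3, which blocks binding of VEGFA to KDR, was higher with hypoxia in monolayer by 2.14 ± 0.29 (adjusted p = 7.14e-05), and higher in EHT than in monolayer by 1.71 ± 0.29 in hypoxia and 4.55 ± 0.29 in normoxia (adjusted p = 6.75e-04 and 6.35e-07). Of 11 genes known to respond early to VEGFA in endothelium, 4 were called higher and none lower with hypoxia in EHT, and 4 higher and 2 lower in monolayer. The shares of all tested genes given for the inhibitors apply here too, and a response to VEGFA was not tested. ETS1 was higher by 1.76 ± 0.23 in EHT and by 1.69 ± 0.23 in monolayer (adjusted p = 1.14e-04 and 8.87e-05), the second with an adjusted p of 0.0635 on uncentred values. RCAN1, a calcineurin inhibitor, was higher with hypoxia in EHT by 1.07 ± 0.25 (adjusted p = 0.00504, or 0.0842 on uncentred values), and under hypoxia it was higher in EHT than in monolayer by 1.89 ± 0.25 (adjusted p = 1.37e-04).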

How the data were processed

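RNA was extracted with RNeasy kits and sequenced on the Ion Proton, per the labels' protocols. Per the submitters' processing notes, HISAT2, featureCounts and DESeq2 were used; their versions, the build and the gene models were not given in the sources used here. Genes are known by symbol. The authors deposited variance-stabilised log2 values. Inverting them gave whole reads within 0.01 for 100% of values in each of 12 libraries.

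A gene was tested if its mean exceeded the table's lowest value by 1 log2 unit or more. Each library was centred on its median over them, and limma 3.58.1 (R 4.3.3, moderated variances with a mean-variance trend, a mean for each group) was fitted to the 12 libraries together. P-values were adjusted by Benjamini-Hochberg over 12084 genes in each of 5 comparisons, with a threshold of 0.05. The fit was run on simulated data in which few genes changed and no library deviated from its group. That run does not test the centring where many genes change, nor the effect of a deviating library. Alternatives were uncentred values, other scalings, filters and variance models, a replicate block, a fit to only the groups compared, and omission of libraries. Scaling to total reads was added after the data were seen.

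Genes named outside the 9 were up to 3 per list, comparison and direction with the smallest p among those called, the genes most correlated with 4 of the 9, and some genes fixed by name, of which the text gives examples. The members and lists were chosen with earlier results of these data known. Figures were drawn with matplotlib 3.10.9.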

Additional observations from a re-analysis of the deposited data

Results flagged for a closer look

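Of the 9 genes and 23 tested genes of related pathways that were followed by name, 14 had a hypoxia difference in EHT that differed from that in monolayer by the interaction test over all 12 libraries, 7 higher and 7 lower, at an adjusted p below 0.05 in limma. Of all tested genes 10.3% were called higher and 14.1% lower. Genes outside the 9 were named partly because they had the smallest p of a comparison, the interaction included. The count of 14 was thus shaped by that choice and is not a result to set against these shares. Values are EHT minus monolayer on the centred log2 scale. The ligand PGF had 3.42 (adjusted p = 0.00266) and ANGPTL4 had -2.28 (adjusted p = 0.00885). The coreceptor NRP2 had -2.29 (adjusted p = 4.79e-05) and the ADM receptor CALCRL had -2.11 (adjusted p = 0.0343). The CALCRL call was lost without any 1 of 8 libraries, with adjusted p values of 0.0554 to 0.0866, and EHT hypoxia libraries held 0 to 8 reads of it. Median-of-ratios scaling also lost the CALCRL call (adjusted p = 0.0653). Among HIF targets CA9 had 4.95 (adjusted p = 3.65e-04), EGLN3 had 2.82 (adjusted p = 0.00720) and NDRG1 had 1.38 (adjusted p = 0.0423). The NDRG1 call was lost without any 1 of 10 libraries, with adjusted p values of 0.0509 to 0.103. It was also lost with no filter on low values (adjusted p = 0.0717) and with no mean-variance trend (adjusted p = 0.0622). Further HIF and stress genes were SLC2A1 with 1.64 (adjusted p = 8.46e-04) and DDIT3 with -1.76 (adjusted p = 6.64e-04). The fatty acid genes CPT1A and SLC25A20 had -2.25 and -1.73 (adjusted p = 0.00882 and 0.00400). The angiogenesis inhibitors CXCL14 and TIMP3 had 4.54 and -2.84 (adjusted p = 4.32e-05 and 5.27e-04). RCAN1 had 1.24 (adjusted p = 0.0223), a call lost without any 1 of 3 libraries (adjusted p = 0.0524 to 0.0558). On uncentred values ANGPTL4, NRP2, CALCRL, CPT1A, DDIT3 and SLC25A20 were not called (adjusted p = 0.133, 0.119, 0.185, 0.147, 0.361 and 0.391).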

How the results depend on the processing

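With 3 libraries a group, differences well above their standard error can go uncalled, such as the FLT1 interaction of -2.07 ± 0.75, and low genes such as PGF in monolayer and ANGPTL4 in monolayer normoxia rest on few reads. Counts of calls moved with the scaling of libraries and, for the interaction, with library weights, while leaving out a single library was enough for KDR and FLT1 to be called with hypoxia in EHT. Uncentred values called 1128 genes in place of 4292 for hypoxia in EHT, 2945 in place of 5615 for hypoxia in monolayer, 1553 in place of 4602 for EHT against monolayer in hypoxia, and 1249 in place of 2956 for the interaction, for which library weights called 4753. The higher and lower calls for hypoxia in EHT were 2360 and 1932, against 858 and 270 uncentred and 1609 and 3043 with scaling to total reads. In monolayer they were 3362 and 2253, against 535 and 2410 uncentred and 1139 and 6089 with total reads. For EHT against monolayer they were 2227 and 2375 in hypoxia (607 and 946; 2634 and 2068) and 2750 and 2234 in normoxia (325 and 3099; 1332 and 4417). For the interaction they were 1248 and 1708 (1147 and 102; 3133 and 716). Scaling to total reads put the median difference of all genes at -0.16, -0.65, 0.06, -0.35 and 0.46 in these 5 comparisons.

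Under every alternative run, hypoxia in EHT stayed called higher for VEGFA, VEGFB, PGF, ADM and ANGPTL4, and hypoxia in monolayer for VEGFA, ADM and ANGPTL4. Between cultures the calls of VEGFC and KDR in both oxygen conditions also held, with PGF in hypoxia, ANGPTL4 and FLT1 in normoxia, and the PGF interaction. Signs changed under some alternatives for differences that were not called in the reported fit, and of these the KDR interaction alone was called after the change, without EHT hypoxia replicate 3 or both EHT libraries numbered 3. On uncentred values VEGFC was -0.15 and 0.14 for hypoxia in monolayer and EHT and 0.29 in the interaction, NRP1 was 0.13 for hypoxia in EHT, VEGFA and VEGFB were -0.25 and -0.36 for EHT against monolayer in normoxia, and the KDR interaction was 0.39. With total reads VEGFC was -0.32 for hypoxia in monolayer and 0.042 in the interaction, FLT1 was 0.064 between cultures in hypoxia, VEGFB was -0.0023 between cultures in normoxia, and the KDR interaction was 0.35. Quantile normalization gave PGF 0.0063 for hypoxia in monolayer and 0.090 between cultures in normoxia, and a KDR interaction of 0.26. Voom on recovered reads gave NRP1 0.053 for hypoxia in EHT and a KDR interaction of 0.14, and library weights gave FLT1 0.082 between cultures in hypoxia and a KDR interaction of 0.72. Without both EHT libraries numbered 3, NRP1 was 0.10 for hypoxia in EHT, FLT1 was 0.13 between cultures in hypoxia, and the KDR interaction was 0.91. Leaving out 1 library at a time gave PGF -0.80 to 0.024 for hypoxia in monolayer and -0.82 to 0.0060 between cultures in normoxia, VEGFC -0.46 to 0.36 and NRP1 -0.51 to 0.42 for hypoxia in EHT, and FLT1 -0.22 to 0.13 between cultures in hypoxia. In the interaction it gave VEGFB -0.0065 to 0.29, KDR -0.98 to 0.99 and NRP1 -0.11 to 0.83.

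The labels do not say that a replicate number marks a shared batch, so the numbers were not taken as a pairing. Deviations of libraries sharing a number had r = -0.06 to 0.33 over the 4 comparisons of groups. Between EHT hypoxia and normoxia, r was 0.33 for replicate 2 and 0.27 for replicate 3. These r do not settle whether the numbers mark a batch. A fit with the number as a replicate block called 4223 genes for hypoxia in EHT, 5574 in monolayer, 4591 and 4976 for EHT against monolayer in hypoxia and normoxia and 2887 for the interaction. In that fit the FLT1 interaction of -2.07 had an adjusted p of 0.0277.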
